A study of Homo sapiens with 9 samples.

Results

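Collagens, laminins and the larger glycoproteins of the extracellular matrix were followed in MDA-MB-231 cells before and during copper chelation. The members were all genes of the count table named as a collagen chain (COL, a number, A, a number) or a laminin chain (LAMA, LAMB or LAMC with a number), together with FN1, SPARC, THBS1, THBS2, TNC, FBN1, FBN2, VCAN, HSPG2, NID1 and NID2. Membership went by gene name, though the list was chosen with earlier results of these data known. These were 67 of 59453 gene names, and 41 of them passed edgeR's expression filter, which kept 16556 genes in all. The cells were MDA-MB-231, an established human TNBC line, sequenced by RNA-Seq in 3 groups of 3 replicates. One group was untreated, and the other groups received TEPA, a copper chelator, for 8 h or for 24 h. The labels give TEPA at 8 mM and the RNA sequencing methods at 4 mM, and the paper's text expands the name differently from its reagent list. A single untreated group served both times, so the comparisons of 8 h and of 24 h with untreated cells share their controls. No untreated group was matched to each time, so an effect of TEPA cannot be told apart from one of time in culture. Neither the labels nor the methods say whether replicates came from separate cultures, so the p-values measure the spread between these libraries, which may be technical.

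The extracellular matrix is laid down as basement membranes and as interstitial matrix. Basement membranes are thin sheets in which networks of collagen IV and of laminin trimers are joined by linkers such as perlecan and the nidogens, while the interstitial matrix is built on fibrillar collagens with fibronectin, fibrillins and associated collagens. Collagen chains are hydroxylated and folded into triple helices in the endoplasmic reticulum, and once secreted they are cross-linked by lysyl oxidases, which are copper enzymes. Breast carcinoma cells make part of this matrix themselves and sense it through integrins, discoidin domain receptors and syndecans.

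Expression is given as CPM, the count of a gene per 1000000 counts of its library after TMM scaling. Total counts ran from 34633755 to 49342659 per library, and the members together took between 0.803% and 0.919% of the counts of a library. The line's own markers were present, with VIM at 3674 ± 124 CPM (SD, n = 3) and CD44 at 859 ± 61.3 CPM (SD, n = 3) in untreated cells, while PGR had no count and ESR1 had at most 9 counts in any library. With ERBB2, these receptors low in TNBC summed to 77.5 to 87.4 CPM in untreated cells, nearly all of it ERBB2. ERBB2 was called lower at 8 h and at 24 h. Markers of fibroblasts, endothelial cells and leukocytes are set beside the collagens further on. Untreated replicate 1 held more FN1 than any other library. Over all tested genes, its counts and those of untreated replicate 2 differed by a chi-square per gene of 20.5. Other pairs of replicates within a group had values of 2.35 to 8.26. Results that turn on untreated replicate 1 are given without it. In a bulk sample, fewer cells making a transcript cannot be told apart from less of it per cell. An adjusted p is from edgeR's quasi-likelihood test with all 9 libraries in one fit and Benjamini-Hochberg adjustment over all 16556 genes tested, and a gene was called at an adjusted p under 0.05.

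Start regions are shown for the collagen IV pair on chromosome 13, which was lower at both times, and for 3 other genes, which were called in opposite directions at 8 h and 24 h. COL4A1 (chr13:110148963-110307157, minus strand, hg38) and COL4A2 (chr13:110305812-110513209, plus strand) are transcribed away from each other, and their RefSeq starts lie 126 bases apart. The annotated span of COL4A2 also holds an earlier start that overlaps COL4A1 on the other strand, and the authors counted reads by strand. The interval between both RefSeq starts, chr13:110307158-110307283, reads on the plus strand as follows, and 80.2% of its bases are G or C. Capitals mark motifs found on either strand. These are CCAAT, then the GC box GGGCGG, then the AP-1 form TGANTCA, and last TATAA.
COL4A1-COL4A2 interval: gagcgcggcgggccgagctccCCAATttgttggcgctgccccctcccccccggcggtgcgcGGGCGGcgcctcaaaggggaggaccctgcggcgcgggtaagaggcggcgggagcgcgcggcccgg
The shared interval held 1 CCAAT and 1 GGGCGG. Of 27305 RefSeq promoters (GRCh38.p14), 21.9% held CCAAT and 34.6% held GGGCGG within the last 126 bases before the start.

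The 250 bases before the RefSeq starts of COL7A1, TNC and COL15A1 are shown because the first pair rose at 8 h and was below untreated cells at 24 h, while COL15A1 did the reverse. They lie at chr3:48595330-48595579 (minus strand), chr9:115118158-115118407 (minus strand) and chr9:98943657-98943906 (plus strand), and the annotated spans of TNC and COL15A1 reach into these windows through other starts.
COL7A1: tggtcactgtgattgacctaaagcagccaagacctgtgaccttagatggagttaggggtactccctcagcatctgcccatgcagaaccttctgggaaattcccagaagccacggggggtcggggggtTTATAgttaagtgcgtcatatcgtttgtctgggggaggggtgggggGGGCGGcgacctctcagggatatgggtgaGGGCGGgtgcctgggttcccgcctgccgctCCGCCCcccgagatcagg
TNC: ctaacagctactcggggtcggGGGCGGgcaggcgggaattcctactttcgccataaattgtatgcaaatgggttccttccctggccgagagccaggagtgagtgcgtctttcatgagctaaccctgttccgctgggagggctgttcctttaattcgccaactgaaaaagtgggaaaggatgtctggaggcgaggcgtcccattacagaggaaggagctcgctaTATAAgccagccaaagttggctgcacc
COL15A1: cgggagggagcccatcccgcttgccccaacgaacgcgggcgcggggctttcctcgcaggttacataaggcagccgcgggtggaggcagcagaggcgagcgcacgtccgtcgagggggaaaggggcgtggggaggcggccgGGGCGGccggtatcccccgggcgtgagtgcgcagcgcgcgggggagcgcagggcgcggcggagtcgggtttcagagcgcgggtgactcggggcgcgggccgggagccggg
COL7A1 held 3 GGGCGG and 1 TATAA, the latter on the opposite strand. TNC held 1 GGGCGG and 1 TATAA, whose last base lay 23 bases before the start. COL15A1 held 1 GGGCGG and none of the other motifs, and no TGANTCA was found in any of these windows. Within 250 bases, GGGCGG was present in 42.3% of all promoters, TATAA in 19.6%, CCAAT in 33% and TGANTCA in 6.6%. Among the 33 tested members in the promoter table, LAMA3 alone held TGANTCA, 22 held GGGCGG, 8 held TATAA and 7 held CCAAT. A match says only that these letters occur in the window.

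Of the 67 members, 26 did not pass the expression filter, and 7 of these (COL5A3, COL11A1, COL6A6, COL9A1, COL22A1, COL10A1 and COL28A1) had no count in any library, which allows a level of up to 0.0608 to 0.0866 CPM depending on the library. The other untested members never exceeded 12 counts. Among them were COL1A2, with at most 6 counts, COL3A1 and FBN2 with at most 12, THBS2 with at most 5, LAMC3 with at most 4 and LAMB4 with at most 3. The nidogens, which link laminin to collagen IV, were nearly silent, with at most 1 count of NID1 and at most 5 of NID2. COL1A1 was therefore expressed without its usual partner COL1A2, and COL9A2 and COL9A3 without COL9A1.

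Per length of the MANE Select transcript, FN1, the fibronectin gene, had the highest untreated level, at 229 ± 54.2 CPM per kb (SD, n = 3). COL6A1 followed at 126 ± 6.25 and COL13A1 at 113 ± 2.29 CPM per kb. COL4A2 (94.4 ± 3.78 CPM per kb) and COL6A2 (92 ± 10.7 CPM per kb) came next and differed by less than the spread of either. LAMA5 stood at 83.6 ± 0.903 CPM per kb, ahead of THBS1 at 74.5 ± 8.37, LAMB1 at 74.2 ± 2.43 and COL7A1 at 69.2 ± 7.56 CPM per kb, and these last 3 also lay within their spread of one another. COL4A1 was measured at 34.8 ± 1.11 CPM per kb, well under its partner COL4A2. Of the 41 members, 16 averaged at least 100 CPM over all libraries, 9 lay between 10 and 100 CPM, 9 between 1 and 10 CPM, and 7 under 1 CPM, where the counting error is largest.

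**Figure D1:**
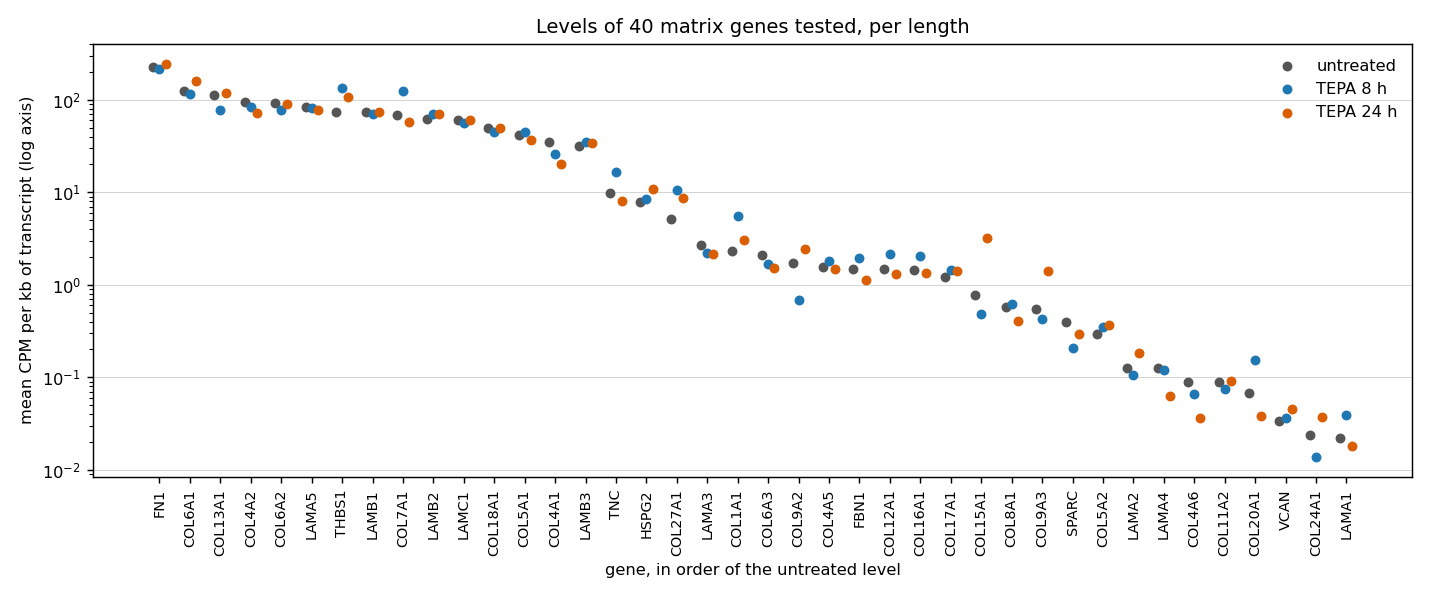
Mean level of 40 of the 41 tested members in CPM per kb of MANE Select transcript (y axis, log scale), with genes on the x axis in order of their untreated level and 1 point per group. FN1, COL6A1 and COL13A1 stand highest, and LAMA1 lowest at 0.0219 CPM per kb in untreated cells.

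After 8 h of TEPA, 12 of the 41 members were higher (29.3%, against 25.2% of all tested genes) and 11 were lower (26.8%, against 24.5%). Beyond a log2 fold change of 1, 3 were higher (COL1A1, COL20A1 and COL27A1, with 4.37% of all genes) and 1 was lower (COL9A2, with 2.45%). After 24 h, 12 were higher, against 25.7% of all genes, and 12 were lower, against 26.8%. Beyond a log2 fold change of 1, COL15A1 and COL9A3 were higher at 24 h (3.93% of all genes were) and COL4A6 and LAMA4 were lower (2.83%). The members' shares in each direction were close to those of all genes. Over the members the log2 fold changes had a median of -0.05 at 8 h and -0.02 at 24 h, beside -0.00 and 0.00 for all genes.

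Between the 8 h and 24 h libraries, which do not involve the untreated group, 18 members were lower at 24 h (43.9%, against 28.8% of all genes) and 10 were higher (24.4%, against 26.0%). COL20A1, COL7A1, LAMA1 and TNC fell by more than 1 on the log2 scale between these times (3.83% of all genes did) and COL15A1, COL9A2 and COL9A3 rose by more than 1 (4.13%). The median log2 difference was -0.04 over the members and -0.02 over all genes. Collagens, laminins and glycoproteins moved in both directions at each time, and chains of one trimer did not always move together.

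**Figure D2:**
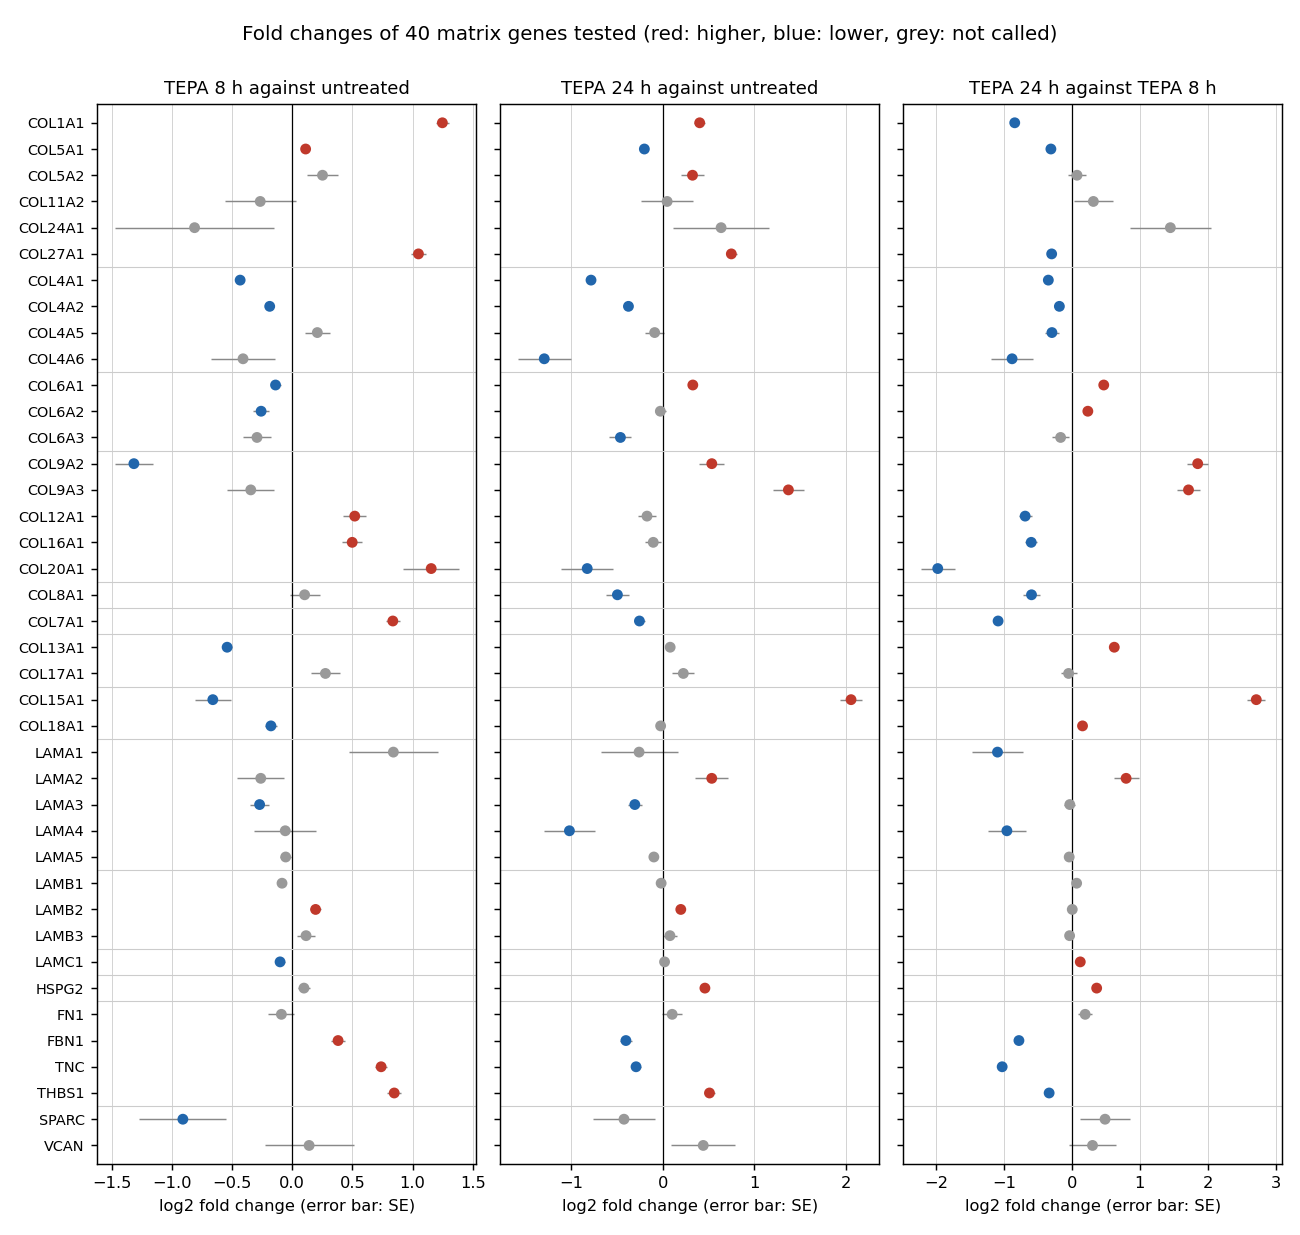
Log2 fold changes of 40 of the 41 tested members (x axes, one panel per comparison, each with its own range) with the standard error as bar, ordered on the y axis by role from fibrillar collagens to other matrix proteins. Red points were called higher, blue lower and grey were not called, and COL15A1 has the highest value at 24 h (2.05) and COL9A2 the lowest at 8 h (-1.32).

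Collagen IV forms the network of basement membranes, and COL4A1 and COL4A2 encode the chains of its common trimer. COL4A1 was measured at 234, 219.8 and 228 CPM in the untreated libraries, 169, 169 and 168 CPM at 8 h, and 131, 130.3 and 135 CPM at 24 h. The groups did not overlap, and each later time lay below the one before. Its log2 fold change was -0.43 ± 0.04 (SE, adjusted p = 1.28e-07) at 8 h and -0.78 ± 0.04 (SE, adjusted p = 1.56e-10) at 24 h, and that of 24 h against 8 h was -0.35 ± 0.04 (SE, adjusted p = 7.35e-07). COL4A2 was measured at 636, 589 and 600.5 CPM in the untreated libraries, 520.0, 542 and 541 CPM at 8 h, and 475, 479.9 and 454 CPM at 24 h. COL4A2 showed the same order without overlap and with smaller steps, with log2 fold changes of -0.19 ± 0.04 (SE, adjusted p = 0.000902) at 8 h and -0.37 ± 0.04 (SE, adjusted p = 9.72e-07) at 24 h. The count of COL4A1 per count of COL4A2 was 0.374 ± 0.0056 (SD, n = 3) in untreated cells, 0.315 ± 0.008 at 8 h and 0.282 ± 0.014 at 24 h, and the 3 groups did not overlap. A two-sided exact permutation test of this ratio, chosen after the values were seen, gave p = 0.1 in every comparison of groups, the smallest p that 3 libraries against 3 can give.

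COL4A5 and COL4A6 encode chains of a rarer collagen IV and are likewise transcribed away from each other, on chromosome X at chrX:108439838-108697545 and chrX:108155607-108439497. COL4A6 was measured at 0.613, 0.503 and 0.659 CPM in the untreated libraries, 0.5, 0.418 and 0.408 CPM at 8 h, and 0.216, 0.255 and 0.25 CPM at 24 h. All 24 h libraries lay below all others, and the 8 h libraries also lay just below the untreated ones. The log2 fold change of COL4A6 was -0.41 ± 0.27 (SE, adjusted p = 0.222) at 8 h, which was not called, and -1.29 ± 0.29 (SE, adjusted p = 0.0015) at 24 h. Its step from 8 h to 24 h, -0.88 ± 0.31 (SE, adjusted p = 0.0232), was not called without TEPA 8 h replicate 1 (-0.78, adjusted p = 0.0842) or TEPA 24 h replicate 1 (-0.80, adjusted p = 0.0856). COL4A5 was measured at 11.8, 8.41 and 10.6 CPM in the untreated libraries, 11.8, 11.6 and 12.1 CPM at 8 h, and 9.57, 9.01 and 10.3 CPM at 24 h. The treated groups each overlapped the untreated one, and the 24 h libraries lay below those at 8 h. COL4A5 was not called against untreated cells at either time (0.21 ± 0.10 (SE, adjusted p = 0.1) and -0.09 ± 0.10 (SE, adjusted p = 0.495)). Without untreated replicate 1 it was called higher at 8 h (0.32, adjusted p = 0.0111), and without untreated replicate 2 lower at 24 h (-0.22, adjusted p = 0.0415). It was lower at 24 h than at 8 h (-0.30 ± 0.10 (SE, adjusted p = 0.021)), a call lost without TEPA 8 h replicate 3 (adjusted p = 0.0696), TEPA 24 h replicate 1 (0.0576) or TEPA 24 h replicate 2 (0.0807).

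The beaded filaments of collagen VI are assembled from trimers of the COL6A1, COL6A2 and COL6A3 chains, and COL6A1 and COL6A2 are neighbours on chromosome 21 (chr21:45981770-46005050 and chr21:46098112-46132848). COL6A1 was measured at 555, 502 and 527 CPM in the untreated libraries, 464, 484 and 491 CPM at 8 h, and 668, 681 and 640.2 CPM at 24 h. It was lowest at 8 h and highest at 24 h, and no group overlapped another. The log2 fold change of COL6A1 was -0.14 ± 0.04 (SE, adjusted p = 0.012) at 8 h and 0.33 ± 0.04 (SE, adjusted p = 8.05e-06) at 24 h. Leaving out single libraries moved the 8 h value of COL6A1 between -0.18 and -0.10. It was called in all 6 of these fits, with adjusted p up to 0.0497. COL6A2 was measured at 357, 285 and 308 CPM in the untreated libraries, 256, 269 and 269.5 CPM at 8 h, and 309, 329 and 295 CPM at 24 h. The 8 h libraries were below the rest, whereas the 24 h and untreated libraries overlapped. COL6A2 was lower at 8 h, at -0.26 ± 0.06 (SE, adjusted p = 0.00324), which became -0.17 without untreated replicate 1, and was not called at 24 h (-0.03 ± 0.06 (SE, adjusted p = 0.757)).

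COL6A3 was measured at 27.2, 17 and 21.4 CPM in the untreated libraries, 16.7, 17.4 and 19.2 CPM at 8 h, and 15.2, 16 and 16.4 CPM at 24 h. COL6A3, the longest of these chains, was measured at a far lower level and spread widely in untreated cells, and only its 24 h libraries lay wholly below the untreated ones. It was lower at 24 h, at -0.46 ± 0.12 (SE, adjusted p = 0.00405) on the log2 scale, or -0.28 without untreated replicate 1. At 8 h its difference was -0.29 ± 0.12 (SE, adjusted p = 0.0522), not called, but it was called without untreated replicate 2 (-0.46, adjusted p = 0.000537) and without TEPA 8 h replicate 3 (-0.36, adjusted p = 0.0481). The counts of COL6A1 per count of COL6A2 were 1.68 ± 0.11 in untreated cells, 1.81 ± 0.011 at 8 h and 2.13 ± 0.058 at 24 h (SD, n = 3), again with no overlap and with an exact permutation p of 0.1 for each pair of groups.

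Fibrillar collagens give interstitial matrix its tensile strength. COL1A1, the main chain of collagen I (chr17:50184101-50201632), and COL27A1, a fibrillar collagen known from cartilage, rose most. COL1A1 was measured at 14.1, 13.7 and 13.1 CPM in the untreated libraries, 32.8, 32.8 and 31.8 CPM at 8 h, and 18.7, 18.2 and 17.3 CPM at 24 h. The 8 h libraries were highest, and the 24 h libraries lay between them and the untreated ones. The log2 fold changes of COL1A1 were 1.25 ± 0.06 (SE, adjusted p = 5.08e-10) at 8 h and 0.40 ± 0.06 (SE, adjusted p = 2.79e-05) at 24 h. COL27A1 was measured at 37, 44.9 and 38.7 CPM in the untreated libraries, 81.2, 80.9 and 87.8 CPM at 8 h, and 67.8, 66.4 and 68.7 CPM at 24 h. COL27A1 followed the same order with no overlap, at 1.05 ± 0.06 (SE, adjusted p = 3.53e-09) and 0.75 ± 0.06 (SE, adjusted p = 5.72e-08). Both were lower at 24 h than at 8 h, with log2 differences of -0.84 ± 0.05 (SE, adjusted p = 5.98e-09) for COL1A1 and -0.30 ± 0.06 (SE, adjusted p = 0.000396) for COL27A1.

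Collagen V, whose COL5A1 and COL5A2 chains join collagen I fibrils and set their width, did not move as one. COL5A1 was measured at 371, 342 and 345 CPM in the untreated libraries, 373, 386 and 385 CPM at 8 h, and 301, 316 and 304 CPM at 24 h. The 8 h libraries lay just above the untreated ones and the 24 h libraries below both. COL5A1 was lower at 24 h (-0.20 ± 0.04 (SE, adjusted p = 0.000442)). Its small rise at 8 h, 0.11 ± 0.04 (SE, adjusted p = 0.0258), was not called without untreated replicate 2 (adjusted p = 0.116), untreated replicate 3 (0.134), TEPA 8 h replicate 2 (0.104) or TEPA 8 h replicate 3 (0.106). COL5A2 was measured at 2.08, 2.01 and 1.93 CPM in the untreated libraries, 2.52, 2.35 and 2.29 CPM at 8 h, and 2.57, 2.36 and 2.61 CPM at 24 h. The treated libraries of COL5A2 were all above the untreated ones, by 0.25 ± 0.13 (SE, adjusted p = 0.126) at 8 h and 0.32 ± 0.13 (SE, adjusted p = 0.0444) at 24 h. Of the 6 untreated and 24 h libraries, leaving out any but TEPA 24 h replicate 2 lost the 24 h call, with adjusted p from 0.0563 to 0.122. COL11A2 and COL24A1 stayed under 1 CPM and were not called in these 3 comparisons, although COL24A1 was called higher at 24 h than at 8 h without TEPA 8 h replicate 1 (2.26, adjusted p = 0.0238) or TEPA 24 h replicate 3 (1.70, adjusted p = 0.0313).

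Markers of other cell types were set beside these collagens, since fibroblasts are the usual source of collagen I. The fibroblast list of 10 genes, which includes COL1A1, summed to 42.9 to 55.9 CPM in untreated cells, 57.4 to 62.2 CPM at 8 h and 109 to 118 CPM at 24 h. THY1 had no count, PDGFRA and FAP had at most 2 counts, DCN at most 4 and LUM at most 13 in any library, and COL1A2 and COL3A1 were at the low counts given above. Of the 3 tested, PDGFRB, a PDGF receptor, and COL1A1 carried nearly all of the sum. PDGFRB was the larger in untreated cells, at 34.2 ± 6.4 CPM (SD, n = 3), and at 24 h, at 94.5 ± 4.35 CPM (SD, n = 3) (1.47 ± 0.09 (SE, adjusted p = 4.75e-09)), and the smaller at 8 h, at 27.1 ± 2.47 CPM (SD, n = 3). It was lower at 8 h (-0.33 ± 0.10 (SE, adjusted p = 0.0122)), a call lost without untreated replicate 1 (-0.18, adjusted p = 0.0507) or TEPA 8 h replicate 1 (-0.26, adjusted p = 0.065). ACTA2 was not called at either time. The 4 endothelial genes summed to 3.55 to 4.51 CPM, then 1.73 to 2.1 and 7.77 to 9.48 CPM, nearly all of it PECAM1, with VWF and CDH5 at no more than 3 counts. Leukocyte genes stayed at or under 0.392 CPM in sum. The part of other cells in these results was not tested.

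**Figure D3:**
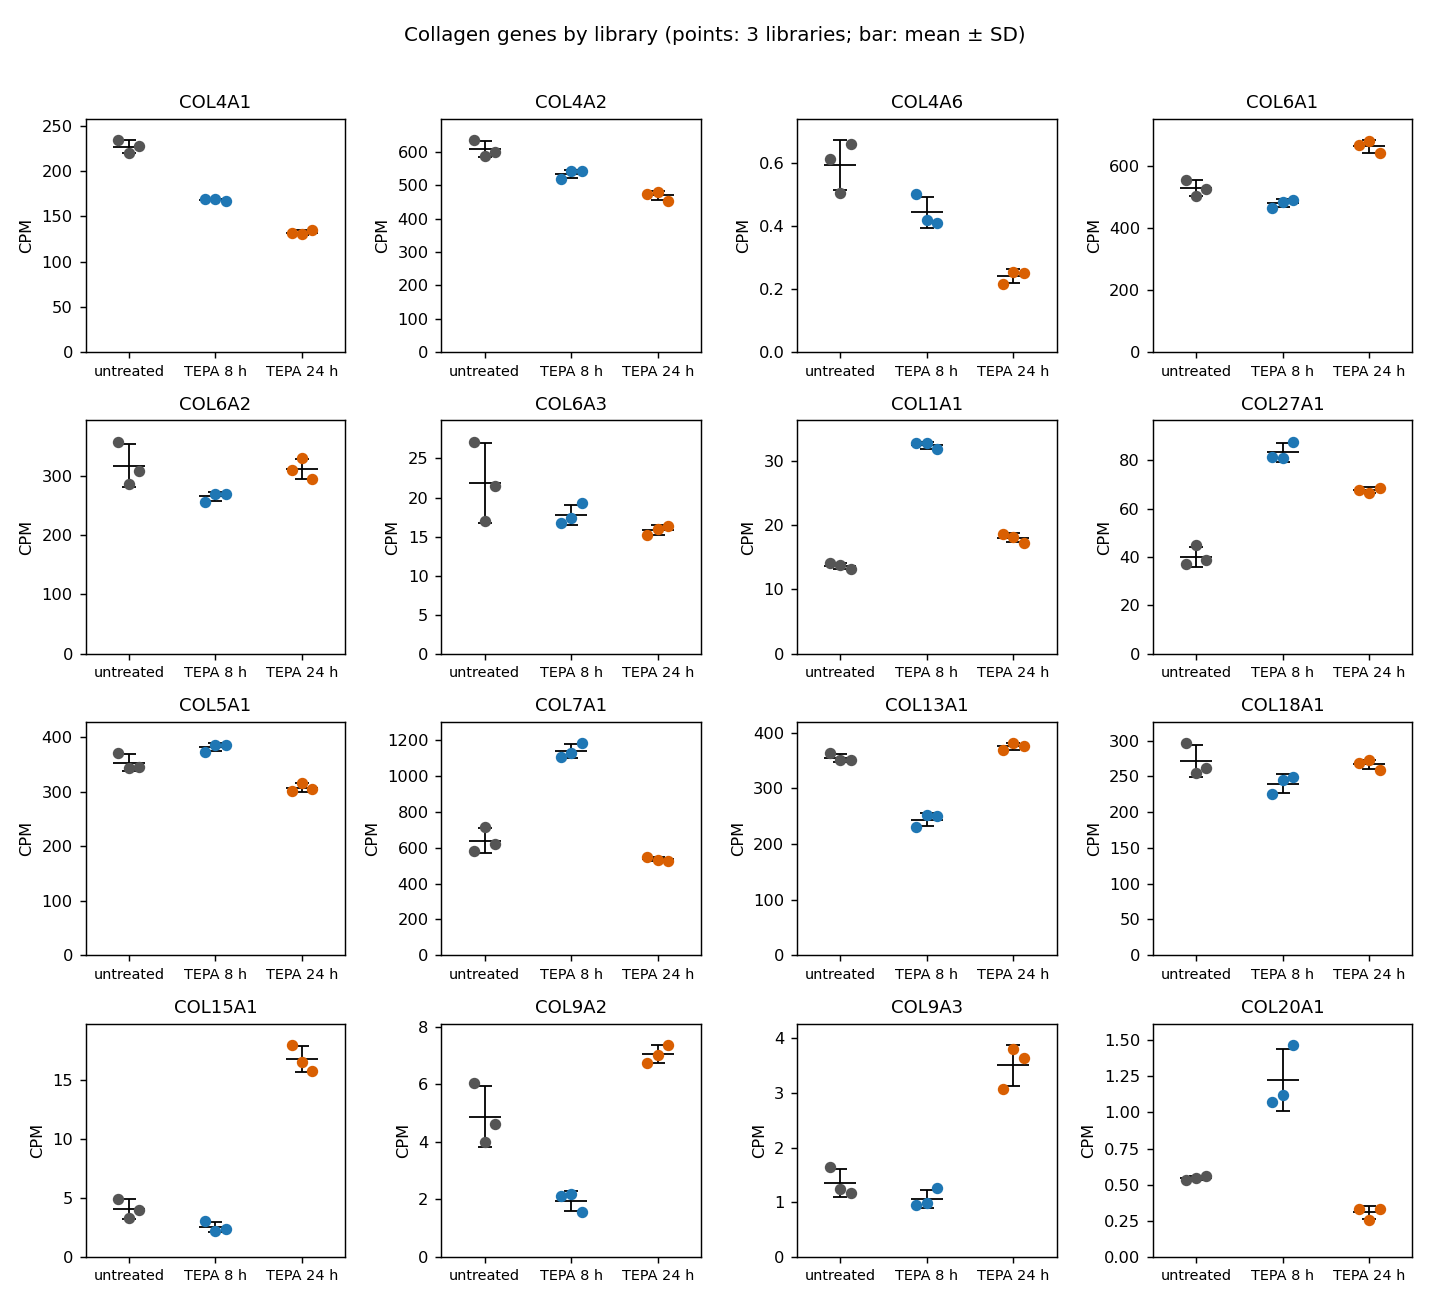
CPM of 16 collagen genes in each library (y axis, from 0; x axis, group), with points for the 3 libraries of a group and a bar for the mean ± SD. COL4A1 and COL4A2 step down at each time, COL7A1 and COL1A1 peak at 8 h, and COL15A1 and COL9A3 stand highest at 24 h.

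COL7A1 (chr3:48564073-48595329) encodes the anchoring fibrils that tie epithelial basement membranes to the stroma. COL7A1 was measured at 580.5, 716 and 619 CPM in the untreated libraries, 1105, 1131 and 1184 CPM at 8 h, and 548, 533 and 526 CPM at 24 h. The 8 h libraries stood well above the others, and the 24 h libraries lay below every untreated one. The log2 fold change was 0.84 ± 0.06 (SE, adjusted p = 2.67e-08) at 8 h and -0.25 ± 0.06 (SE, adjusted p = 0.00173) at 24 h, the latter -0.17 (adjusted p = 0.00388) without untreated replicate 2. From 8 h to 24 h COL7A1 changed by -1.09 ± 0.06 (SE, adjusted p = 1.01e-09) on the log2 scale. It stood with TNC, FBN1 and COL20A1 as members called higher at 8 h and lower at 24 h, and COL5A1 had the same directions with the weaker 8 h call given above.

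The multiplexins COL15A1 and COL18A1 are collagens with heparan or chondroitin sulfate chains, and COL18A1 is the source of endostatin. COL15A1 was measured at 4.93, 3.28 and 3.98 CPM in the untreated libraries, 3.02, 2.22 and 2.39 CPM at 8 h, and 18, 16.5 and 15.8 CPM at 24 h. COL15A1 was lowest at 8 h and several times higher at 24 h than in any other library, with no overlap between groups. Its log2 fold change was -0.66 ± 0.15 (SE, adjusted p = 0.00197) at 8 h and 2.05 ± 0.12 (SE, adjusted p = 2.26e-09) at 24 h (4.15-fold), and 24 h exceeded 8 h by 2.71 ± 0.13 (SE, adjusted p = 3.38e-10). PECAM1, an endothelial adhesion molecule, moved the same way at both times, by log2 values of -1.76 and 1.18. The endothelial gene KDR was called at neither time, and VWF and CDH5 stayed at no more than 3 counts. Any part of PECAM1 in the COL15A1 values was not tested. COL18A1 was measured at 296, 255 and 262 CPM in the untreated libraries, 225, 246 and 249 CPM at 8 h, and 268, 272 and 259.6 CPM at 24 h. The 8 h libraries of COL18A1 lay below the others, which overlapped. It was lower at 8 h, at -0.18 ± 0.05 (SE, adjusted p = 0.0116), or -0.14 (adjusted p = 0.0601) without TEPA 8 h replicate 1 and -0.11 (adjusted p = 0.0419) without untreated replicate 1, and was not called at 24 h (-0.02 ± 0.05 (SE, adjusted p = 0.743)).

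Transmembrane collagens sit in the plasma membrane, COL13A1 at adhesion sites and COL17A1 in hemidesmosomes. COL13A1 was measured at 363, 350.1 and 352 CPM in the untreated libraries, 231, 251 and 250.1 CPM at 8 h, and 369.5, 381 and 376 CPM at 24 h. The 8 h libraries were below all others, and those at 24 h slightly above the untreated ones. COL13A1 fell at 8 h (-0.54 ± 0.04 (SE, adjusted p = 3.49e-08)). At 24 h it stood at 0.08 ± 0.04 (SE, adjusted p = 0.089), which was not called. It was called higher at 24 h without untreated replicate 1 (0.10, adjusted p = 0.0437) or with upper-quartile scaling (0.11, adjusted p = 0.0239). COL17A1, at 6.76 ± 1.14 CPM (SD, n = 3) in untreated cells, was not called (0.28 ± 0.12 (SE, adjusted p = 0.0713) and 0.22 ± 0.12 (SE, adjusted p = 0.131)). It was called higher at 8 h without untreated replicate 3 (0.36, adjusted p = 0.0398) or with no expression filter (0.26, adjusted p = 0.032).

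Fibril-associated collagens decorate other fibrils. COL9A2 was measured at 6.03, 3.98 and 4.62 CPM in the untreated libraries, 2.1, 2.17 and 1.55 CPM at 8 h, and 6.73, 7.02 and 7.37 CPM at 24 h. COL9A2, a chain of collagen IX, was lowest at 8 h and highest at 24 h without overlap, with log2 fold changes of -1.32 ± 0.16 (SE, adjusted p = 6.71e-06) and 0.54 ± 0.13 (SE, adjusted p = 0.0034). COL9A3 was measured at 1.65, 1.25 and 1.17 CPM in the untreated libraries, 0.95, 0.993 and 1.25 CPM at 8 h, and 3.08, 3.8 and 3.64 CPM at 24 h. For COL9A3, its partner, the 8 h libraries overlapped the untreated ones (-0.34 ± 0.20 (SE, adjusted p = 0.159)), and all 24 h libraries lay above them (1.37 ± 0.17 (SE, adjusted p = 4.54e-06)). COL20A1 was measured at 0.533, 0.547 and 0.558 CPM in the untreated libraries, 1.07, 1.12 and 1.47 CPM at 8 h, and 0.334, 0.255 and 0.334 CPM at 24 h. COL20A1 was highest at 8 h and lowest at 24 h, and its groups did not overlap although its level was low. Its log2 fold change was 1.16 ± 0.23 (SE, adjusted p = 0.000694) at 8 h and -0.82 ± 0.28 (SE, adjusted p = 0.0221) at 24 h, and the 24 h call was lost without untreated replicate 3 (adjusted p = 0.0519) or TEPA 24 h replicate 2 (0.0744).

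COL12A1 and COL16A1, which lie on collagen I and related fibrils, rose at 8 h by 0.52 ± 0.09 (SE, adjusted p = 0.00027) and 0.50 ± 0.08 (SE, adjusted p = 0.000156) from 17.5 ± 2.62 CPM (SD, n = 3) and 7.87 ± 0.129 CPM (SD, n = 3). At 24 h they were not called (-0.17 ± 0.10 (SE, adjusted p = 0.149) and -0.10 ± 0.09 (SE, adjusted p = 0.34)), except that COL12A1 was lower without untreated replicate 1 (-0.29, adjusted p = 0.0045). The short-chain collagen COL8A1, at 3.16 ± 0.25 CPM (SD, n = 3) in untreated cells, was not called at 8 h (0.10 ± 0.12 (SE, adjusted p = 0.52)) and was lower at 24 h (-0.49 ± 0.13 (SE, adjusted p = 0.00439)).

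Laminins are trimers of an alpha, a beta and a gamma chain and form the first layer of a basement membrane. The most abundant chains changed little. LAMA5 was measured at 962, 959.5 and 943 CPM in the untreated libraries, 854, 941 and 964 CPM at 8 h, and 903, 928 and 847 CPM at 24 h. LAMC1 was measured at 497, 466 and 473 CPM in the untreated libraries, 424, 462 and 453 CPM at 8 h, and 480.5, 493 and 482 CPM at 24 h. LAMB1 was measured at 434, 417 and 407 CPM in the untreated libraries, 386, 397 and 404 CPM at 8 h, and 414, 426 and 404 CPM at 24 h. The groups of LAMA5 overlapped at 8 h and lay just apart at 24 h, and those of LAMC1 and LAMB1 lay just apart at 8 h and overlapped at 24 h. LAMA5 was not called at 8 h (-0.05 ± 0.05 (SE, adjusted p = 0.352)) or 24 h (-0.10 ± 0.05 (SE, adjusted p = 0.0913)). It was called at 24 h without TEPA 24 h replicate 2 (-0.13, adjusted p = 0.0453) or with no expression filter (-0.10, adjusted p = 0.0326). LAMB1 was not called either (-0.08 ± 0.04 (SE, adjusted p = 0.0709) and -0.02 ± 0.04 (SE, adjusted p = 0.722)), except at 8 h without untreated replicate 3 (-0.11, adjusted p = 0.0457).

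LAMC1 was lower at 8 h, at -0.10 ± 0.04 (SE, adjusted p = 0.046), and did not pass at 24 h (0.02 ± 0.04 (SE, adjusted p = 0.698)). The 8 h call was lost without untreated replicate 1 (adjusted p = 0.115), untreated replicate 3 (0.0601), TEPA 8 h replicate 1 (0.181) or TEPA 8 h replicate 3 (0.0598). LAMC1 was higher at 24 h than at 8 h by 0.12 ± 0.04 (SE, adjusted p = 0.0172), except without TEPA 8 h replicate 1 (0.09, adjusted p = 0.0847). LAMB2 was measured at 373, 343 and 338 CPM in the untreated libraries, 383, 413 and 410.5 CPM at 8 h, and 394, 426 and 389 CPM at 24 h. For LAMB2, a beta chain that can take the place of LAMB1, every treated library was above the untreated ones and the treated groups overlapped each other. It rose by 0.19 ± 0.05 (SE, adjusted p = 0.00281) at 8 h and 0.20 ± 0.05 (SE, adjusted p = 0.00227) at 24 h on the log2 scale.

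LAMA3 and LAMB3 encode chains of laminins that bind hemidesmosomes in epithelia. LAMA3 was measured at 32.5, 26 and 27.5 CPM in the untreated libraries, 22.2, 24.2 and 24.8 CPM at 8 h, and 23.8, 24.2 and 21.4 CPM at 24 h. LAMA3 was lower in all treated libraries than in the untreated ones, with log2 fold changes of -0.27 ± 0.08 (SE, adjusted p = 0.00907) at 8 h and -0.30 ± 0.08 (SE, adjusted p = 0.00374) at 24 h, and of -0.18 (adjusted p = 0.0407) at 8 h without untreated replicate 1. LAMB3 was measured at 111, 146 and 128 CPM in the untreated libraries, 139, 136 and 142 CPM at 8 h, and 139.6, 140.2 and 126 CPM at 24 h. The LAMB3 groups overlapped and it was not called (0.11 ± 0.07 (SE, adjusted p = 0.202) and 0.08 ± 0.07 (SE, adjusted p = 0.381)), except without untreated replicate 2, when it was higher both at 8 h (0.21, adjusted p = 0.0072) and after the longer treatment (0.18, adjusted p = 0.0177).

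Alpha chains of laminins known from muscle, vessels and embryonic tissue were low, with LAMA1 and LAMA4 averaging under 1 CPM and LAMA2 between 1 and 10 CPM. LAMA4 was measured at 0.827, 0.941 and 0.964 CPM in the untreated libraries, 1.02, 0.915 and 0.68 CPM at 8 h, and 0.294, 0.625 and 0.445 CPM at 24 h. The 24 h libraries were below all others and the 8 h libraries straddled the untreated ones. LAMA4, a chain of vessel and muscle laminins, was not called at 8 h (-0.06 ± 0.26 (SE, adjusted p = 0.87)) and was lower at 24 h (-1.02 ± 0.28 (SE, adjusted p = 0.00646)). Against 8 h the 24 h value was -0.96 ± 0.29 (SE, adjusted p = 0.00961), and -0.69 (adjusted p = 0.0625) when TEPA 24 h replicate 1 was left out. LAMA1 was measured at 0.267, 0.241 and 0.127 CPM in the untreated libraries, 0.475, 0.366 and 0.299 CPM at 8 h, and 0.196, 0.139 and 0.195 CPM at 24 h. All 8 h libraries of LAMA1 were above the others, which overlapped. Neither difference from untreated cells was called (0.84 ± 0.37 (SE, adjusted p = 0.0724) and -0.26 ± 0.42 (SE, adjusted p = 0.633)), and the fall from 8 h to 24 h, -1.10 ± 0.38 (SE, adjusted p = 0.0223), lost its call without TEPA 8 h replicate 1 (adjusted p = 0.106) or TEPA 24 h replicate 2 (0.08). LAMA2 was measured at 1.17, 1.49 and 1.04 CPM in the untreated libraries, 1.02, 0.967 and 1.12 CPM at 8 h, and 1.96, 1.65 and 1.78 CPM at 24 h. Its 24 h libraries were above all others, and the 8 h libraries overlapped the untreated ones. LAMA2 was not called at 8 h (-0.26 ± 0.20 (SE, adjusted p = 0.287)) and was higher at 24 h (0.53 ± 0.18 (SE, adjusted p = 0.0195)), a call lost without untreated replicate 3 (adjusted p = 0.0858) or TEPA 24 h replicate 1 (0.0872).

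HSPG2 encodes perlecan, the heparan sulfate proteoglycan that links both basement membrane networks. HSPG2 was measured at 110.5, 109.5 and 118 CPM in the untreated libraries, 112, 124 and 126 CPM at 8 h, and 155, 159.6 and 149.6 CPM at 24 h. Its 24 h libraries were above all others, while the 8 h libraries overlapped the untreated ones. HSPG2 rose by 0.46 ± 0.05 (SE, adjusted p = 9.77e-07) at 24 h and was not called at 8 h (0.10 ± 0.05 (SE, adjusted p = 0.107)), except without TEPA 8 h replicate 1 (0.15, adjusted p = 0.0175).

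**Figure D4:**
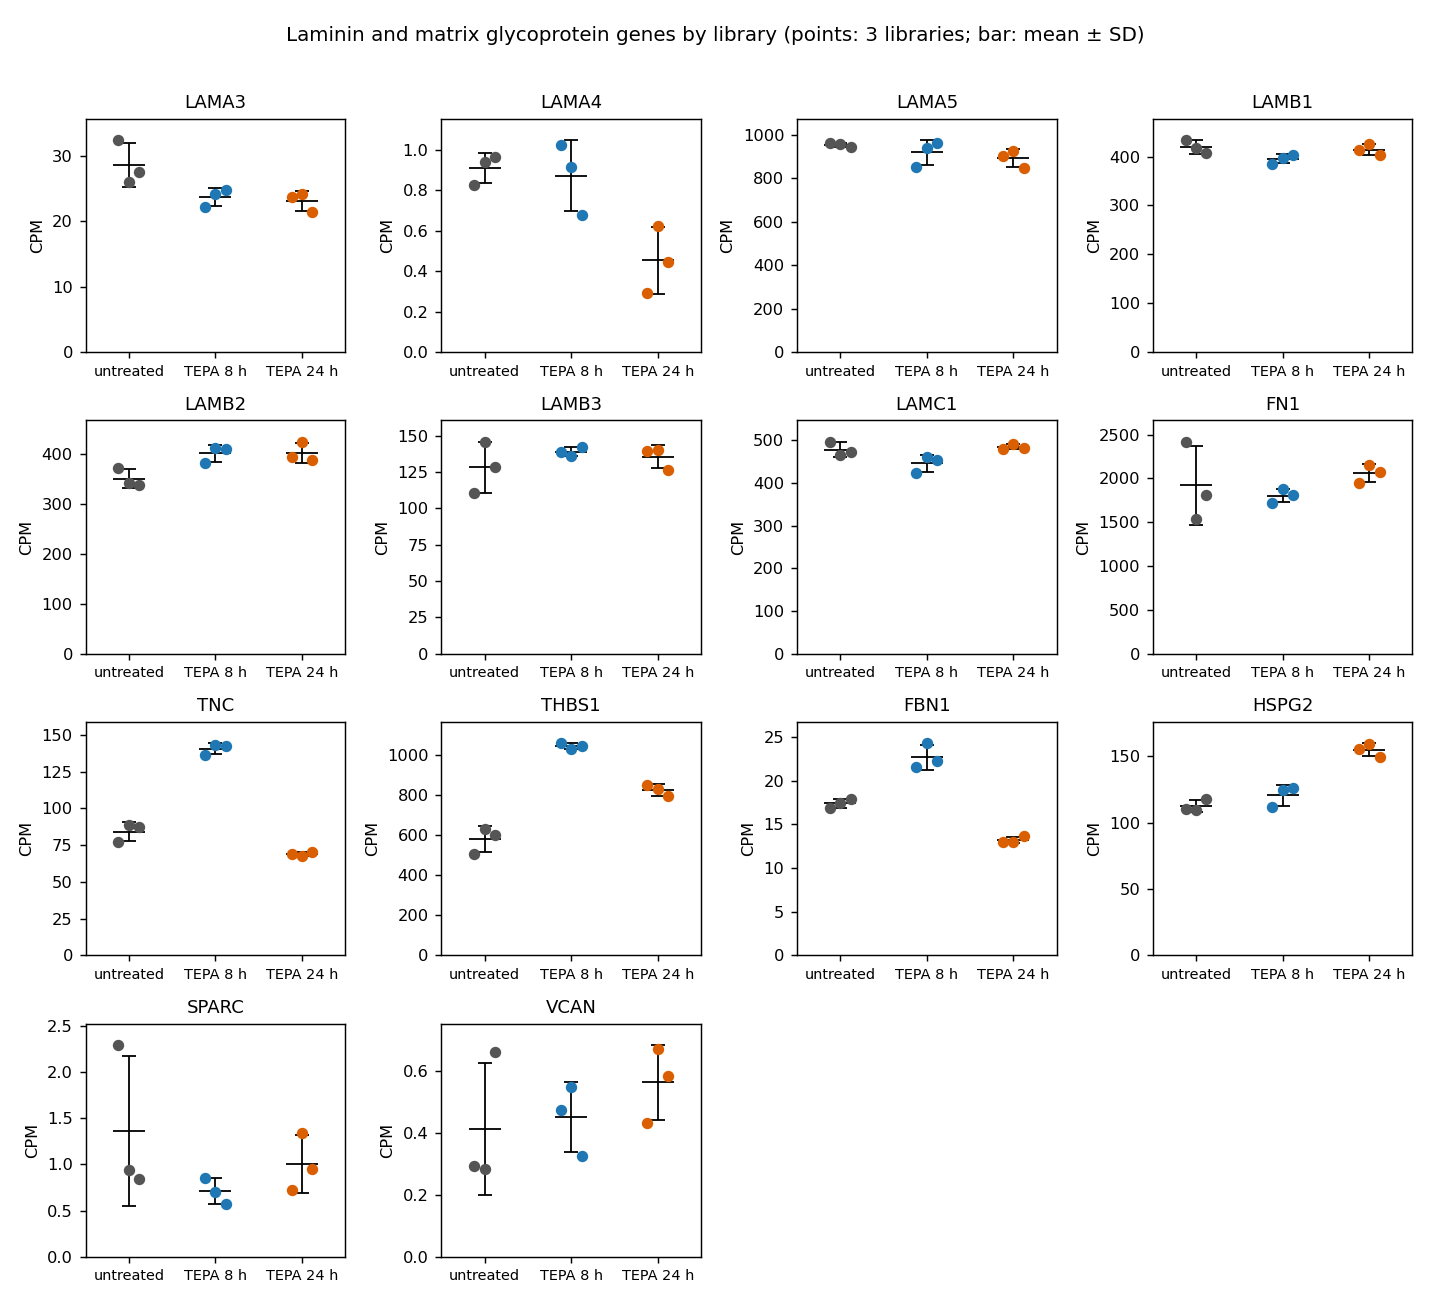
CPM of 14 laminin and glycoprotein genes in each library (y axis, from 0; x axis, group), with points for the 3 libraries of a group and a bar for the mean ± SD. LAMA5, LAMB1 and LAMC1 stay nearly level, TNC, THBS1 and FBN1 peak at 8 h, HSPG2 is highest at 24 h, and untreated replicate 1 of FN1 and of SPARC stands above its group.

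Among adhesive glycoproteins, THBS1 and TNC rose at 8 h. THBS1 (chr15:39581079-39599466) encodes thrombospondin-1, which binds CD47 and can release TGFB1 from its latent form. THBS1 was measured at 507, 631 and 602 CPM in the untreated libraries, 1059, 1030.0 and 1044 CPM at 8 h, and 852, 832 and 794 CPM at 24 h. The 3 groups did not overlap, with 8 h highest and 24 h between. Its log2 fold change was 0.85 ± 0.06 (SE, adjusted p = 3.22e-08) at 8 h and 0.51 ± 0.06 (SE, adjusted p = 3.62e-06) at 24 h. TNC was measured at 77, 88.6 and 87.1 CPM in the untreated libraries, 136, 143 and 143 CPM at 8 h, and 68.7, 67.8 and 70.3 CPM at 24 h. TNC, the tenascin-C gene of wound and tumour matrix, was highest at 8 h and lowest at 24 h without overlap, at 0.74 ± 0.05 (SE, adjusted p = 1.38e-08) and -0.29 ± 0.05 (SE, adjusted p = 0.000129). From 8 h to 24 h TNC changed by -1.03 ± 0.05 (SE, adjusted p = 2.97e-10). FBN1, which builds microfibrils, took the same course at a lower level, from 17.4 ± 0.505 CPM (SD, n = 3) to 22.7 ± 1.43 CPM (SD, n = 3) and 13.2 ± 0.344 CPM (SD, n = 3), with log2 fold changes of 0.38 ± 0.06 (SE, adjusted p = 0.000101) and -0.40 ± 0.06 (SE, adjusted p = 7.12e-05).

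FN1 (chr2:215360440-215436073) took between 18.74% and 26.52% of all member counts in a library. FN1 was measured at 2420.0, 1533 and 1806 CPM in the untreated libraries, 1723, 1875 and 1812 CPM at 8 h, and 1952, 2155 and 2078 CPM at 24 h. The untreated libraries spanned both treated groups, and the 24 h libraries lay above those at 8 h. FN1 was not called at 8 h (-0.09 ± 0.11 (SE, adjusted p = 0.516)), at 24 h (0.10 ± 0.11 (SE, adjusted p = 0.445)) or between the times (0.19 ± 0.11 (SE, adjusted p = 0.142)). Without untreated replicate 1 it was higher at 24 h (0.30, adjusted p = 0.000185), and without untreated replicate 2 it was lower at 8 h (-0.24, adjusted p = 0.0237). Fitted on the treated libraries alone, 24 h exceeded 8 h by 0.22 (adjusted p = 0.000129).

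SPARC and VCAN, a collagen-binding protein and the proteoglycan versican, were barely expressed. SPARC was measured at 2.29, 0.941 and 0.837 CPM in the untreated libraries, 0.85, 0.706 and 0.571 CPM at 8 h, and 0.726, 1.34 and 0.945 CPM at 24 h. The single untreated library of replicate 1 stood above the rest, and the groups overlapped. SPARC was called lower at 8 h, at -0.91 ± 0.36 (SE, adjusted p = 0.0475), but without untreated replicate 1 its log2 fold change was -0.33 (adjusted p = 0.394). The call was also lost without TEPA 8 h replicate 1 (-1.07, adjusted p = 0.0586), TEPA 8 h replicate 2 (-0.91, 0.103) or TEPA 8 h replicate 3 (-0.79, 0.142), and it was not called at 24 h (-0.42 ± 0.34 (SE, adjusted p = 0.315)). VCAN was measured at 0.293, 0.285 and 0.659 CPM in the untreated libraries, 0.475, 0.549 and 0.327 CPM at 8 h, and 0.431, 0.672 and 0.584 CPM at 24 h. All VCAN groups overlapped and none of its differences from untreated cells was called (0.14 ± 0.37 (SE, adjusted p = 0.778) and 0.44 ± 0.35 (SE, adjusted p = 0.313)), except at 24 h without untreated replicate 3 (0.94, adjusted p = 0.0498).

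The receptors that hold cells to this matrix were mostly lower at 8 h. Of 20 tested receptors, 3 were higher (CD44, DDR2 and ITGA10) and 15 were lower at 8 h, where 25.2% of all tested genes were higher and 24.5% lower. DDR2 no longer passed at 8 h when TEPA 8 h replicate 3 was left out (0.50, adjusted p = 0.0508). At 24 h 4 receptors were higher and 7 lower, beside 25.7% and 26.8% of all genes. The median log2 fold changes of the receptors were -0.26 at 8 h and -0.02 at 24 h. ITGB4, which pairs with ITGA6 in the receptor for hemidesmosomal laminin, went from 186 ± 22.7 CPM (SD, n = 3) to 90.8 ± 3.93 CPM (SD, n = 3) at 8 h (-1.04 ± 0.07 (SE, adjusted p = 3.45e-08)) and 158 ± 13.1 CPM (SD, n = 3) at 24 h (-0.24 ± 0.07 (SE, adjusted p = 0.0118)). The 24 h value was -0.15 (adjusted p = 0.048) without untreated replicate 1, and ITGB4 no longer passed when TEPA 24 h replicate 1 (-0.21, adjusted p = 0.0527) or replicate 3 (-0.19, adjusted p = 0.0543) was left out. ITGB3, ITGB5 and the syndecan SDC2 were lower at 8 h, at -0.84 ± 0.09 (SE, adjusted p = 3.07e-06), -0.78 ± 0.06 (SE, adjusted p = 9.35e-08) and -0.86 ± 0.07 (SE, adjusted p = 2.11e-07). At 24 h ITGB5 and the syndecan SDC1 were lower (-0.49 ± 0.06 (SE, adjusted p = 6.54e-06) and -0.48 ± 0.04 (SE, adjusted p = 1.37e-07)). SDC1 was also lower at 8 h (-0.16 ± 0.04 (SE, adjusted p = 0.00537)). ITGA10, a collagen-binding integrin, rose at 24 h by 1.76 ± 0.17 (SE, adjusted p = 5.66e-07), and the collagen receptor DDR2 by 0.95 ± 0.20 (SE, adjusted p = 0.00101).

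Enzymes and chaperones that fold, modify and cross-link collagen were called lower more often than higher. Of 32 tested, 3 were higher and 19 lower at 8 h (25.2% and 24.5% of all genes), and 7 were higher and 16 lower at 24 h (25.7% and 26.8% of all genes). Their median log2 fold changes were -0.22 and -0.16. SERPINH1, a collagen chaperone of the endoplasmic reticulum, went from 286 ± 12.4 CPM (SD, n = 3) to 188 ± 2.23 CPM (SD, n = 3) and 111 ± 2.34 CPM (SD, n = 3), with log2 fold changes of -0.60 ± 0.04 (SE, adjusted p = 9.47e-09) and -1.36 ± 0.04 (SE, adjusted p = 1.92e-12). LOXL1, a lysyl oxidase at 8.12 ± 0.979 CPM (SD, n = 3) in untreated cells, was lower at both times (-1.36 ± 0.11 (SE, adjusted p = 1.06e-07) and -2.40 ± 0.12 (SE, adjusted p = 3.75e-10)). LOX was also lower at both times (-0.78 ± 0.12 (SE, adjusted p = 8.79e-05) and -0.75 ± 0.12 (SE, adjusted p = 9.79e-05)). LOXL2, the most abundant lysyl oxidase here, went from 252 ± 20.1 CPM (SD, n = 3) to 171 ± 5.25 CPM (SD, n = 3) and 258 ± 15.5 CPM (SD, n = 3). LOXL2 was lower at 8 h (-0.56 ± 0.05 (SE, adjusted p = 6.92e-07)) and was not called at 24 h (0.03 ± 0.05 (SE, adjusted p = 0.669)). LOXL4 was lower at 8 h (-0.76 ± 0.10 (SE, adjusted p = 1.52e-05)) and higher at 24 h (0.70 ± 0.09 (SE, adjusted p = 8.75e-06)). COLGALT2, which adds galactose to collagen, and P3H4, a partner of the lysine hydroxylation complex, were lower at 24 h (-1.30 ± 0.09 (SE, adjusted p = 2e-08) and -1.14 ± 0.06 (SE, adjusted p = 6.04e-10)). Both were also lower at 8 h (-0.70 ± 0.09 (SE, adjusted p = 1.28e-05) and -0.44 ± 0.06 (SE, adjusted p = 1.36e-05)). P4HA1, a catalytic chain of prolyl hydroxylase, was lower at 8 h (-0.75 ± 0.07 (SE, adjusted p = 6.92e-07)) and at 24 h (-0.37 ± 0.07 (SE, adjusted p = 0.000398)).

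Of 34 other matrix glycoproteins and proteoglycans tested, 6 were higher and 10 lower at 8 h (list median -0.05 on the log2 scale), beside 25.2% and 24.5% of all genes. After 24 h, 13 were higher and 9 lower (list median 0.17), beside 25.7% and 26.8% of all genes. FBLN1, a fibulin of elastic fibres and basement membranes, went from 22.3 ± 0.492 CPM (SD, n = 3) to 12.9 ± 1.36 CPM (SD, n = 3) and 29.6 ± 1.27 CPM (SD, n = 3), with log2 fold changes of -0.79 ± 0.07 (SE, adjusted p = 3.67e-07) and 0.41 ± 0.07 (SE, adjusted p = 9.42e-05). NTN4, a laminin-related netrin of basement membranes, was lower at both times (-0.87 ± 0.07 (SE, adjusted p = 1.85e-07) and -0.63 ± 0.07 (SE, adjusted p = 2.66e-06)). At 24 h the fibulin FBLN7 was higher by 1.24 ± 0.14 (SE, adjusted p = 1.68e-06), while HAPLN3, a hyaluronan link protein, and the netrin NTN1 were lower (-1.14 ± 0.12 (SE, adjusted p = 8.27e-07) and -1.16 ± 0.25 (SE, adjusted p = 0.00104)). Smaller differences were those of HAPLN3 and NTN1 at 8 h (-0.58 ± 0.11 (SE, adjusted p = 0.000513) and -0.71 ± 0.24 (SE, adjusted p = 0.0239)), and tenascin-X, TNXB, at 24 h (0.85 ± 0.21 (SE, adjusted p = 0.00265)). The NTN1 call at 8 h held in 2 of 6 fits that each left out a library, and was lost without untreated replicate 1 (-0.64, adjusted p = 0.055), untreated replicate 3 (-0.66, 0.0721), TEPA 8 h replicate 1 (-0.44, 0.113) or TEPA 8 h replicate 2 (-0.73, 0.0539).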

How the data were processed

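The RNA of MDA-MB-231 cells was sequenced, untreated or treated with TEPA for 8 h or 24 h, with 3 replicates per group. Per the methods, the authors aligned reads to hg38 with HISAT2 and used featureCounts by strand to count the read pairs on exons of each gene name. The deposited values are raw counts of 59453 gene names without normalization, from 34633755 to 49342659 per library, and 0 columns were left out. The upper limits given for genes with no count cover counting error only. The data of other cell lines were not analysed here.

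From the counts, genes were filtered with filterByExpr (minimum count 10), which left 16556 genes holding 99.95% of the counts, scaled by TMM factors (0.978 to 1.039) and fitted with edgeR 4.0.16 in R 4.3.3. All 9 libraries entered one quasi-likelihood fit (biological coefficient of variation 0.0481). Benjamini-Hochberg adjustment covered all tested genes, and a standard error is the size of a log2 fold change over the root of its F. CPM per kb used MANE Select transcript lengths and positions from GENCODE on hg38, and promoters came from RefSeq (GRCh38.p14). Motifs were searched on both strands. The procedure was tested on simulated data.

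The members and gene lists (receptors, collagen folding, export and processing, other matrix glycoproteins and proteoglycans, and marker lists of the line, of hormone and ERBB2 receptors, fibroblasts, endothelial cells and leukocytes) were chosen with earlier results of these data known. Of the tested members 40 were named, and 1 is not reported here but is counted. Values per library were given for members called beyond a log2 fold change of 1 in any comparison, with a mean of at least 100 CPM, named in the study (COL4A1, LAMA4, SPARC and VCAN), or joined with one of these in a list of known trimers, and for COL4A5 and LAMA2 besides. Up to 4 genes per other list and comparison were named, those called with the largest change and a mean of at least 1 CPM. LOXL2 and marker genes were added as needed. Count ratios between chains were added after the values were seen. The alternatives were RLE and upper-quartile scaling, DESeq2 1.42.0, no filter, a filter of 10 counts in every library, the replicate number as a block, only the 2 groups compared, and leaving out each library.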

Additional observations from a re-analysis of the deposited data

Results flagged for a closer look

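Levels differed between 24 h and 8 h of TEPA for 28 of the 41 members tested. Of these members 10 were higher and 18 lower at 24 h, where 26.0% and 28.8% of all genes were. Calls used the adjusted p of edgeR's quasi-likelihood test of 24 h against 8 h. Since both times share the untreated group, this test also compares their differences from untreated cells. Longer TEPA treatment cannot be told apart here from longer time in culture. The values that follow, for 27 of the 28 members, are log2 differences of 24 h minus 8 h. Higher at 24 h were COL15A1 (2.71), COL9A2 (1.85), COL9A3 (1.72), LAMA2 (0.80), COL13A1 (0.62), COL6A1 (0.47), HSPG2 (0.36), COL6A2 (0.23), COL18A1 (0.15) and LAMC1 (0.12). Among lower members, the collagens were COL20A1 (-1.98), COL7A1 (-1.09), COL4A6 (-0.88), COL1A1 (-0.84), COL12A1 (-0.69), COL16A1 (-0.60), COL8A1 (-0.60), COL4A1 (-0.35), COL5A1 (-0.31), COL27A1 (-0.30), COL4A5 (-0.30) and COL4A2 (-0.19). The lower laminins and glycoproteins were LAMA1 (-1.10), TNC (-1.03), LAMA4 (-0.96), FBN1 (-0.78) and THBS1 (-0.34).

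Among these, COL18A1 was not called without TEPA 8 h replicate 1 (0.11), TEPA 24 h replicate 1 (0.15) or TEPA 24 h replicate 2 (0.14). The calls of LAMC1, LAMA4, COL4A6, COL4A5 and LAMA1 were also lost in some alternatives, as given above. LAMA1, LAMA4 and COL4A6 averaged under 1 CPM.

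The same held for 17 other matrix genes named above by size of change, and for LOXL2 (0.59, higher at 24 h). Higher at 24 h than at 8 h were FBLN7 (1.47), LOXL4 (1.46), FBLN1 (1.19), ITGA10 (1.04), SDC2 (0.91), ITGB4 (0.80), ITGB3 (0.66), TNXB (0.52), P4HA1 (0.38), ITGB5 (0.29) and NTN4 (0.24), and TNXB was not called without TEPA 8 h replicate 1 (0.33, adjusted p = 0.185), TEPA 8 h replicate 3 (0.55, 0.0694), TEPA 24 h replicate 1 (0.54, 0.0732) or TEPA 24 h replicate 2 (0.39, 0.163). Lower were LOXL1 (-1.03), SERPINH1 (-0.76), P3H4 (-0.69), COLGALT2 (-0.60), HAPLN3 (-0.56) and SDC1 (-0.32).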

How the results depend on the processing

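The number of members called was 23 at 8 h (21 to 25 over the alternatives), 24 at 24 h (21 to 26) and 28 between the times (24 to 30), and no member changed direction past the threshold. Leaving out single libraries gave 21 to 25, 21 to 26 and 24 to 28 members, and 51 to 56 and 50 to 58 of the other matrix genes, of which 56 were called at each time. Called under every alternative run were 19 of 23, 20 of 24 and 21 of 28 members. Those lost in at least one included LAMC1, SPARC, COL5A1 and COL18A1 at 8 h, COL5A2, LAMA2 and COL20A1 at 24 h, and LAMC1, LAMA4, COL4A6, COL4A5, LAMA1 and COL18A1 between the times. DESeq2 gave 25, 21 and 25 members, and also called COL6A3 (-0.31, adjusted p = 0.0287) and LAMB1 (-0.09, adjusted p = 0.0353) at 8 h. With no filter, edgeR also called FN1 at 8 h (-0.10, adjusted p = 0.0224), at 24 h (0.10, 0.0254) and between the times (0.20, 3.43e-07). The same setting called COL6A3 at 8 h (-0.30, adjusted p = 0.000155) and COL24A1 between the times (1.45, 0.0395). Fitting only the 2 treated groups called LAMB1 between the times (0.09, adjusted p = 0.0133). RLE and upper-quartile scaling moved the median of all genes by at most 0.0265 on the log2 scale.

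The replicate numbers were not shown to pair the libraries: deviations of same-numbered libraries from their group means correlated at -0.08 to 0.038. With the number as a replicate block, 21, 23 and 28 members were called, and the lost calls were LAMC1 (adjusted p = 0.073) and SPARC (0.0557) at 8 h and COL5A2 (0.0627) at 24 h. The block gave 12 higher and 9 lower members at 8 h, 11 and 12 at 24 h, and 10 and 18 between the times, with 56 other matrix genes at each time. Depth limits the 7 members under 1 CPM and the 26 that were not tested. The causes of these changes were not tested.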

Other observations

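Counts of some laminin chains also shifted against each other. The count of LAMB2 per count of LAMB1, the beta chains that compete for the same place, was 0.838 ± 0.018 (SD, n = 3) in untreated cells, 1.02 ± 0.024 at 8 h and 0.972 ± 0.025 at 24 h, and both treated groups lay above the untreated one (exact permutation p = 0.1, the smallest 3 libraries against 3 can give). LAMA5 per LAMC1 was 2 ± 0.063, 2.06 ± 0.058 and 1.84 ± 0.073, with the 24 h libraries below the others. COL6A3 per COL6A1 was 0.0412 ± 0.0076, 0.0371 ± 0.0018 and 0.0239 ± 0.0014, again with the 24 h libraries lowest, and its exact permutation p at 8 h was 0.6. LAMA3 per LAMB3 was 0.229 ± 0.059, 0.171 ± 0.0092 and 0.171 ± 0.0016, with an exact permutation p of 0.1 for each treated group against untreated cells. Its untreated values ran from 0.178 in replicate 2 to 0.294 in replicate 1. In all, 6 such ratios were computed, none of which can pass a threshold of 0.05 at this number of libraries.

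CDH1, the epithelial cadherin, which is low in this line, was measured at 0.624 ± 0.17 CPM without TEPA, 0.351 ± 0.11 CPM after 8 h and 3.19 ± 0.79 CPM after 24 h (SD, n = 3), and its log2 fold change was 2.33 ± 0.24 (SE, adjusted p = 1.06e-06, edgeR) at 24 h. Of the 8 markers of the line, CDH1 and KRT19 (1.05, adjusted p = 0.0197, edgeR) were called higher and KRT18 (-0.21, adjusted p = 0.000176) and VIM (-0.12, adjusted p = 0.0201) lower at 24 h, beside 25.7% and 26.8% of all genes, while KRT8 (0.04), EPCAM (-0.02), CDH2 (0.70) and CD44 (0.01) were not called. The KRT19 call at 24 h was lost without untreated replicate 1 (adjusted p = 0.0511), untreated replicate 2 (0.102) or TEPA 24 h replicate 3 (0.0561). The 24 h call of VIM was lost without untreated replicate 3 (adjusted p = 0.0814), TEPA 24 h replicate 1 (0.0514) or TEPA 24 h replicate 3 (0.0909). At 8 h, VIM and CD44 were called higher and KRT8 and KRT18 lower, beside 25.2% and 24.5% of all genes. The 8 h call of VIM held in all 6 fits that each left out a library. CDH1 was not called at 8 h, but was called lower in 2 of these 6 fits. CDH1, CDH2 and KRT8 were higher and CD44 and VIM lower at 24 h than at 8 h, beside 26.0% and 28.8% of all genes.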
